A study of Mus musculus with 10 samples.

Results

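The genes described here are 8 components and companions of the cytotoxic granule: the granzymes Gzma, Gzmb, Gzmk and Gzmm, the pore protein gene Prf1, and the granule-associated genes Nkg7, Srgn and Ctsw. They were chosen by symbol, each matched 1 row of the gene list of every RNA library, and together they make up 8 of the 31053 rows of the series. They were measured in T cells that infiltrated mouse colorectal carcinoma, with a droplet method that reads transcripts of single cells at the 5' end in 5 libraries, with 5 T cell receptor (TCR) libraries of the same samples. The untreated group had 2 RNA libraries. The group treated with the plant Stellera chamaejasme, written S. chamaejasme, had 1, and the group given S. chamaejasme with anti-PD-1, an antibody to an inhibitory receptor of T cells, had 2 and is called the combination here. No group received the antibody alone. The labels used here give no strain, age, dose or tumour line, and they do not say that libraries came from separate animals, so each p-value measures only the spread between libraries, which may be technical.

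Cytotoxic T cells keep granzymes, a family of serine proteases, in lysosome-like granules together with perforin. On contact with a target the granule fuses with the cell surface, perforin opens pores and the granzymes enter the target and cleave proteins inside it. Serglycin, the product of Srgn, is the proteoglycan that holds the proteases in the granule, Nkg7 is a membrane protein that takes part in granule release, and Ctsw encodes cathepsin W, a cysteine protease of cytotoxic lymphocytes.

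The members lie on several chromosomes of the mouse genome (mm10, equal to GRCm38, with gene models of GENCODE M21). Gzma (chr13:113093825-113100981) and Gzmk (chr13:113171608-113225908) lie near each other on the minus strand of chromosome 13, and Gzmb (chr14:56258838-56262260) lies on the minus strand of chromosome 14. Prf1 (chr10:61297833-61304680), Gzmm (chr10:79689020-79695261) and Srgn (chr10:62493833-62527451, minus strand) are on chromosome 10, Nkg7 (chr7:43437073-43438249) is on chromosome 7 and Ctsw (chr19:5465043-5468507, minus strand) on chromosome 19. Gzmk overlaps Esm1 on the opposite strand and Ctsw overlaps the end of Fibp, so that without a statement on strand in the counting, reads of these pairs cannot be told apart. Because Gzma, Gzmb and Gzmk moved in different ways below, the 250 bases before their RefSeq start sites are shown, read 5' to 3' on the strand of the gene, with the letters of the motifs searched in capitals. They are chr13:113100982-113101231 (minus strand) for Gzma, chr14:56262335-56262584 (minus strand) for Gzmb and chr13:113180966-113181215 (minus strand) for Gzmk.
Gzma: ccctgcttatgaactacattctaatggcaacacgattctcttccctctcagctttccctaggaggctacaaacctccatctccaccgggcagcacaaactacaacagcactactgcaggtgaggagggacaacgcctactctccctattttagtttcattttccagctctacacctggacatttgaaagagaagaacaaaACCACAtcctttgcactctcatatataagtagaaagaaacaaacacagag
Gzmb: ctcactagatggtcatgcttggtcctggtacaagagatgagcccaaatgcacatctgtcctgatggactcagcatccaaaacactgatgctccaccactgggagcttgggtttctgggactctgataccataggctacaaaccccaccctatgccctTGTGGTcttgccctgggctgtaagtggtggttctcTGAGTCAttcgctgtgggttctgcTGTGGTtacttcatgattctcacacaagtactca
Gzmk: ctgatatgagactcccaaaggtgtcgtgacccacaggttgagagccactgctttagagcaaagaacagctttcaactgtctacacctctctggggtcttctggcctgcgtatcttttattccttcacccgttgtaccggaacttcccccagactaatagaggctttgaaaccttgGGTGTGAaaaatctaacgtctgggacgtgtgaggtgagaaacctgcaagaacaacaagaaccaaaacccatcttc

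Motif letters were searched on both strands in the 250 bases before the starts of the 7 of 8 members that have an entry among the RefSeq promoters of GRCm38.p6; Ctsw was not matched. The motifs were those of RUNX factors (TGTGGT), T-box factors (GGTGTGA), AP-1 (TGANTCA) and STAT factors (TTCNNNGAA). The Gzmb window held RUNX letters 93 and 34 bases before the start and AP-1 letters 58 bases before it, all on the strand of the gene. The Gzma window held RUNX letters on the opposite strand 50 bases before the start, and the Gzmk window held T-box letters 75 bases before it. Prf1 had 1 RUNX match, Nkg7 had 1 match each of the RUNX, T-box and STAT letters, and the 2 starts each of Gzmm and Srgn together had 4 matches. Among all 32851 promoter windows of the same length, 14.05% held the RUNX letters, 3.33% the T-box letters, 6.75% the AP-1 letters and 7.02% the STAT letters. A match is a description of the sequence and not a binding site.

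**Figure D1:**
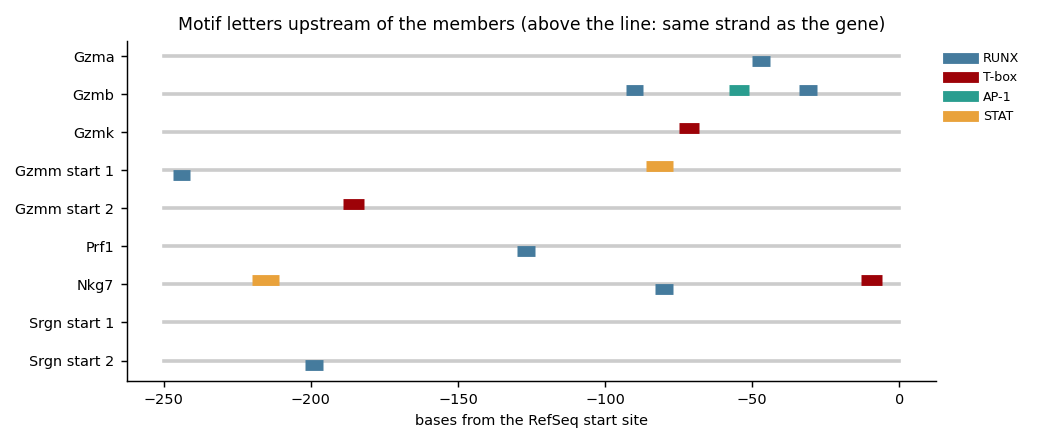
Positions of the motif letters in the 250 bases before each RefSeq start of the members, in bases from the start (x axis), coloured by motif. Marks above a line lie on the strand of the gene. The Gzmb line carries 3 marks, the Gzma and Gzmk lines 1 each, and the first start of Srgn none.

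After filtering, 20239 cells remained, between 2244 and 5044 per library, with a median of 3404 to 4906 UMIs per cell. Between 63 and 112 cells of a library carried a barcode that also occurs in another library. Clusters were made without the 8 members and without any other gene of the Gzm family. A Treg-like class and an innate-like T class were named from marker lists, and a CD8 T-like class (clusters 4 and 8) and a CD4 conventional T-like class (6 clusters) from the shares of their cells with Cd8a, Cd8b1 and Cd4. Cd3e was detected in 98.3% of the cells of cluster 8 and in 93.6% of the innate-like cells, Cd8a in 85.7% of cluster 8, Foxp3 in 57.3% of the larger Treg-like cluster and Fcer1g in 54.9% of the innate-like cluster. A further class, a cluster of 198 cells led by Trdv4, Cd163l1 and Tmem176b, is called gamma delta 17-like here. The CD8 T-like class held 460 and 528 cells in the untreated libraries, 750 in the S. chamaejasme library and 652 and 752 in the combination libraries, and the innate-like class held 21, 97, 483, 130 and 87 in the same order, in which all values per library are given below. AY036118 and Lars2, transcripts often read as signs of RNA quality, moved with the groups: AY036118 was at 2996, 3764, 760, 1147 and 1085 CPM (counts scaled to a common library total) in CD8 T-like cells, and both fell in the combination against the untreated group by 1.61 and 1.37 on the log2 scale. The part of these differences in the results below was not tested. Both transcripts were also among the 10 leading genes of cluster 7 (1486 cells), which is in the CD4 class with Cd4 in 28.7% of its cells but raised none of the 13 markers of that class. It made up 24.6% and 41.6% of the CD4 class in the untreated, 0.721% in the S. chamaejasme and 2.02% and 2.03% in the combination libraries, so results of the class were also computed without it.

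Among the 4 larger classes, Gzmb and Gzma, the most abundant granzymes, were higher in CD8 T-like, innate-like and Treg-like cells than in CD4 cells. For both genes the first 3 classes overlapped. Gzmk, in contrast, was far higher in CD8 T-like cells than in the other 3 classes. Levels are CPM of the UMIs summed over the cells of a class; because UMIs are counted per transcript from the 5' end, they are not divided by length. Gzma, granzyme A, was at 1030, 202, 487, 447 and 231 CPM in CD8 T-like cells. Its mean over the 5 libraries was 479 ± 332 CPM (SD, n = 5) in CD8 T-like, 424 ± 362 in innate-like, 181 ± 160 in Treg-like and 20.5 ± 19.3 in CD4 conventional T-like cells. The first 3 classes overlapped with their neighbours in this order, and no library of the CD4 class reached the lowest Treg-like value.

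Gzmb, the granzyme that cleaves after aspartate and activates caspases, was at 1128, 346, 736, 216 and 164 CPM in CD8 T-like cells. It was at 298, 160, 467, 431 and 180.5 CPM in Treg-like cells. Over the whole classes, both combination libraries thus had a higher Gzmb level in Treg-like than in CD8 T-like cells and both untreated libraries had less. In cluster 8 of the CD8 T-like class the combination libraries were at 871 and 601 CPM, above the 625 and 263 CPM of the larger Treg-like cluster. In innate-like cells Gzmb was at 468, 1358, 222, 183 and 288 CPM. Of the 511 UMIs behind the value of untreated replicate 2, 465 were in 1 cell. In CD4 conventional T-like cells Gzmb stayed between 8.60 and 60.5 CPM. Gzmk, a tryptase-like granzyme, was at 93.4, 61.2, 126, 85.4 and 94.9 CPM in CD8 T-like cells and at no more than 8.60 CPM in CD4, 14.8 in Treg-like and 7.44 in innate-like cells, without overlap. Gzmm, granzyme M, was rare: its 12 to 43 UMIs per library in CD8 T-like cells came to 7.99 ± 1.99 CPM (SD, n = 5), and no other class had more than 9 UMIs in a library.

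The pore protein and the 3 granule companions were distributed in other ways. Prf1 was low throughout, at 27.9 ± 5.50 CPM in CD8 T-like, 18.6 ± 10.3 in innate-like, 12.99 ± 5.06 in CD4 and 3.31 ± 2.50 in Treg-like cells (SD, n = 5), with each class overlapping the next. Nkg7 was at 805 ± 134 CPM in innate-like and 688 ± 181 in CD8 T-like cells, which overlapped, and at 36.2 ± 10.1 in Treg-like and 26.8 ± 20.3 in CD4 cells. Ctsw was highest in innate-like cells, at 1154 ± 327 CPM, then in CD8 T-like cells at 518 ± 153, and neither overlapped the class after it. By its mean, Srgn was the most abundant member in each of the 4 classes and highest in Treg-like cells, at 3450 ± 361 CPM. Innate-like cells followed at 2322 ± 729, CD4 cells at 1827 ± 294 and CD8 T-like cells, the lowest of the 4, at 1689 ± 476. Each class overlapped the next in this order.

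**Figure D2:**
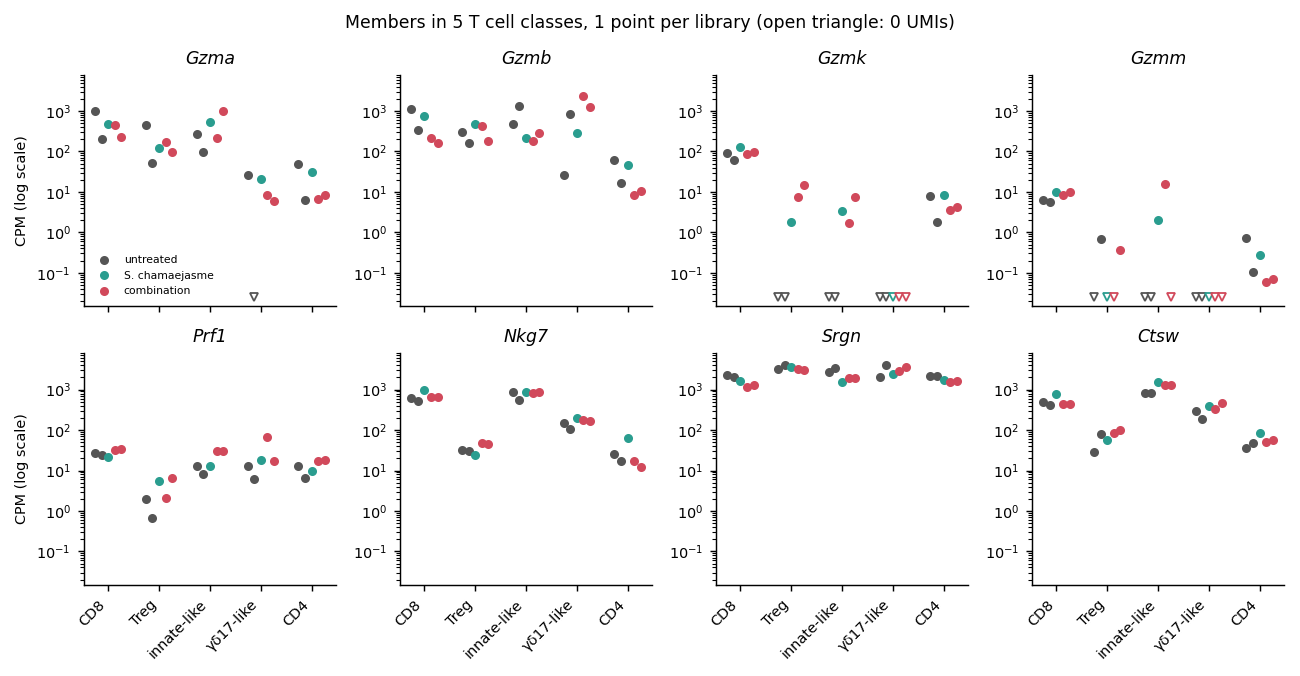
CPM (log axis) of each member in 5 T cell classes, with 1 point per library coloured by group and open triangles for 0 UMIs. Gzmk lies between 61.2 and 126 CPM in CD8 T-like cells and below 15 CPM in the other classes, while Srgn lies above 1000 CPM in every class.

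The gamma delta 17-like cells were few, 19 to 87 in a library. Their Gzmb was at 26.5, 823, 286, 2295 and 1291 CPM from 2, 135, 94, 279 and 221 UMIs, above the CD8 T-like level in untreated replicate 2 and both combination libraries, and Gzmk and Gzmm had no UMI there in any library. In this small class edgeR called 0 of 5 tested members in each comparison, and 1 of them, Gzmb, had an unadjusted p under 0.05 in the combination against each other group. DESeq2 was not run on this class. The share of all genes called in it is not given here, so 0 of 5 is no result about the members.

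Since clusters are drawn from the transcriptome, the class order was tested in cells chosen only by UMIs of coreceptor and lineage genes (Cd8a or Cd8b1, Cd4, Foxp3, Fcer1g and the Cd3 genes), none of which is a member. With edgeR's quasi-likelihood test with the library as a block and Benjamini-Hochberg adjustment, 16 of 21 contrasts of 7 members with the CD4 gate were called at an adjusted p under 0.05. Of the 8747 genes tested, 23.1% were called between the CD8 and CD4 gates, 26% between the Treg and CD4 gates and 22.7% between the innate-like and CD4 gates, so the count of members stands against a high background. In the CD8 gate Gzmb was at 1043, 297, 635, 170 and 167 CPM, and in the CD4 gate at 40.5, 37.5, 68.2, 21.5 and 14.9 CPM, without overlap. The CD8 gate was higher than the CD4 gate in 6 members, by 3.54 ± 0.29 for Gzmb, 4.02 ± 0.42 for Gzma, 2.58 ± 0.17 for Gzmk, 4.51 ± 0.15 for Nkg7, 3.20 ± 0.13 for Ctsw and 1.32 ± 0.16 for Prf1 (log2, SE), with adjusted p of at most 3.5e-07. Srgn differed by -0.17 with an adjusted p of 0.19.

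The Treg gate had more of 3 members and less of another 2 than the CD4 gate. Gzmb was 3.03 ± 0.32 higher (log2, SE) than in the CD4 gate (adjusted p 3.09e-08 by edgeR's quasi-likelihood test), Gzma 2.98 ± 0.49 higher and Srgn 0.71 ± 0.09 higher. Gzmk was lower by -3.24 ± 0.74 and Prf1 by -1.51 ± 0.41, and Nkg7 and Ctsw differed by -0.20 and 0.13 with adjusted p of 0.64 and 0.69. The Gzma call was lost when 2 or more UMIs of the coreceptor were asked for (log2 0.29, adjusted p 0.90), and the Prf1 call was lost without combination replicate 1. In the innate-like gate Gzma, Gzmb, Nkg7 and Ctsw were higher than in the CD4 gate by 4.17, 2.52, 4.64 and 4.21, Gzmk was lower by -2.21 (adjusted p 0.041), and Prf1 and Srgn were not called. The Gzmk call was lost without S. chamaejasme replicate 1 (adjusted p 0.069) or combination replicate 1 (0.11) or 2 (0.11).

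Within the CD8 T-like class the granzyme transcripts sat in 1 cluster. Cluster 8, led beside members by Ccl5, Ccl4 and Klrc1, took up 60%, 37.9%, 70.8%, 27.1% and 30.9% of the class, lowest in both combination libraries. It held 96.4% to 99.7% of the Gzma UMIs, 97.6% to 99.9% of the Gzmb UMIs and 97.2% to 100% of the Gzmk UMIs of the class. Granzymes did not enter the clustering, but genes that go with them did, so this is a description and not a test. Prf1 was spread otherwise: only 15.9% to 57.8% of its UMIs were in cluster 8, and its level was 32.8, 27.0, 26.2, 34.8 and 37.1 CPM in cluster 4, led by Cd8b1, Ly6c2 and Plac8, against 24.5, 19.1, 18.5, 20.4 and 29.0 CPM in cluster 8. Cluster 4 had the higher Prf1 value in each of the 5 libraries. Gzmm was likewise not concentrated in cluster 8, which held 23.5% to 58.3% of its UMIs.

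In the comparison of the combination with the untreated group, Gzmb and Srgn fell in the CD8 T-like class as a whole. The question this comparison addresses is what the plant and the antibody together changed, and it cannot separate them. Gzmb was at 1128 and 346 CPM in the untreated and at 216 and 164 CPM in the combination libraries, which did not overlap. It fell by 1.92 ± 0.34 on the log2 scale (SE; adjusted p 0.0064 by edgeR's quasi-likelihood test with Benjamini-Hochberg adjustment over 9584 genes). Srgn was at 2272 and 2063 CPM in the untreated and 1174 and 1289 CPM in the combination libraries and fell by 0.81 ± 0.14 (adjusted p 0.0044 by the same test). These 2 of 8 tested members were called, both lower, where 5.35% of all genes tested were called and 3.69% were called as lower. The Gzmb call was lost with DESeq2 (adjusted p 0.15), and its fall ranged from -2.50 to -0.95 over 12 alternatives, smallest without untreated replicate 1. The Srgn call was lost without combination replicate 1 (adjusted p 0.25) or 2 (0.14).

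The other 6 members did not pass in the whole class. Gzma differed by -0.80 (adjusted p 0.34 by edgeR), and its 2 untreated libraries, at 1030 and 202 CPM, enclosed both combination libraries. Without untreated replicate 1 the difference turned to 0.67. Gzmk differed by 0.24, Gzmm by 0.62, Prf1 by 0.35, Nkg7 by 0.23 and Ctsw by 0.00. For Prf1, Gzmm and Nkg7 both combination libraries lay above both untreated ones, without a call. With 2 libraries in each group, a two-sided exact test of such a separation cannot go below 0.333. The share of all genes whose groups separated is not given, so a lack of overlap is a description throughout this comparison. In bulk sums of this kind, fewer cells that carry a transcript and less transcript per cell cannot be told apart, which is why cluster 8 was also taken alone.

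Within cluster 8 the granzymes parted: Gzmk rose and Gzmb fell in the combination. Gzmk was at 151 and 173 CPM in the untreated, 191 CPM in the S. chamaejasme and 347.5 and 347.7 CPM in the combination libraries, and the groups did not overlap. It rose by 1.01 ± 0.17 on the log2 scale (SE; adjusted p 0.00057 by edgeR's quasi-likelihood test), and the call held in all 8 alternatives run, between 0.87 and 1.12, with DESeq2 among them (adjusted p 0.0011). Gzmb was at 1859 and 972 CPM in the untreated and 871 and 601 CPM in the combination libraries, again without overlap, and fell by 1.04 ± 0.20 (adjusted p 0.0033); the fall ranged from -1.42 to -0.54 over the alternatives and was not called by DESeq2 (adjusted p 0.25). In the same cells Cd4, a gene of the other lineage, rose from 5.25 and 5.62 to 21.4 and 30.8 CPM and AY036118 fell by 1.81; their part was not tested.

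Among the granule companions in cluster 8, Srgn fell by 0.81 ± 0.14 (adjusted p 0.00083 by edgeR), from 3064 and 3984 to 2065 and 2224 CPM, and this held in all 8 alternatives. Nkg7 rose by 0.49 ± 0.14 (adjusted p 0.042), from 790 and 894 to 1335 and 1197 CPM, but the call held in only 1 of 8 alternatives. These 4 of 8 members were called where 4.7% of 8113 genes were called. Gzma differed by 0.12 (adjusted p 0.88); its untreated libraries were at 1708 and 569 CPM and its combination libraries at 1813 and 839 CPM, which interleave, and without untreated replicate 2 its difference was -0.46. Prf1 differed by 0.09, Ctsw by 0.23 and Gzmm by 0.88, none of them called.

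**Figure D3:**
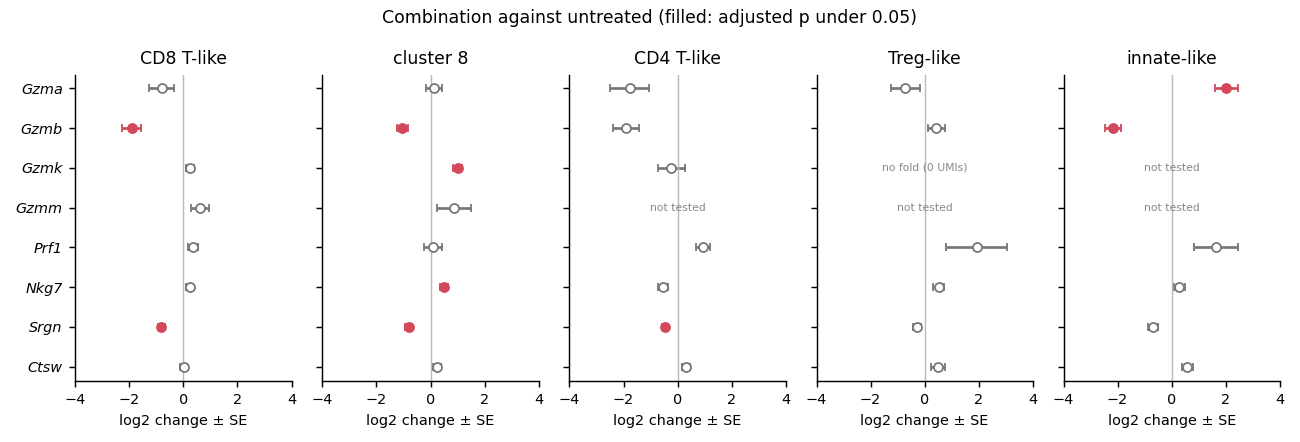
Log2 change of each member in the combination against the untreated group (x axis, with SE) in the CD8 T-like class, its cluster 8 and 3 other classes; filled red points have an adjusted p under 0.05 by edgeR. Gzmb lies at -1.92 in the CD8 class and -1.04 in cluster 8, where Gzmk lies at 1.01.

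In CD4 conventional T-like cells only Srgn was called in the combination against the untreated group, 1 of 7 tested members, lower, where 5.94% of 11364 genes were called and 3.77% were called as lower. Srgn was at 2115 and 2172 CPM in the untreated and 1541 and 1620 CPM in the combination libraries and fell by 0.47 ± 0.11 (SE; adjusted p 0.046 by edgeR), a call lost without combination replicate 1 or 2. The class was made up of different clusters in the groups: beside cluster 7, cluster 0 held 5.39% and 3.49% of the untreated and 33.1% and 34.3% of the combination cells, and cluster 3, led by Il17a, Il22 and Il17f, 30.2% and 12.3% against 7.001% and 6.90%. In the 6 clusters taken alone the Srgn difference ranged from -0.53 to -0.02 and was called in 0 by edgeR, with an unadjusted p under 0.05 in 3; DESeq2 was not run on them. Gzmb was at 60.5 and 16.4 CPM against 8.60 and 10.8 CPM and Prf1 at 12.96 and 6.37 against 17.5 and 18.3 CPM; neither gene's groups overlapped, and the log2 differences of -1.93 and 0.94 had adjusted p of 0.058 and 0.065. Without cluster 7 both were called, at -2.31 (adjusted p 0.013) and 1.29 (adjusted p 0.037), and Srgn was at -0.55 (adjusted p 0.013). Of the clusters taken alone, Gzmb was tested in 1, at -0.19 (adjusted p 0.74 by edgeR). Prf1 was tested in 3, at 0.32 to 0.87, and called in 0 (lowest adjusted p 0.39). In cluster 3 Gzmb was at 190 and 113 CPM in the untreated and 125 and 155 CPM in the combination libraries. The part of the mix of clusters was not tested. Gzmk and Nkg7 in CD4 conventional T-like cells depended on how the cells were chosen. In the CD4 gate on coreceptor UMIs, where 5.21% of all genes were called, Gzmk differed by 1.55 (adjusted p 0.024) and Nkg7 by 1.21 (adjusted p 0.0051), against -0.23 and -0.53 in the class.

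In Treg-like cells Gzmk was the 1 of 7 tested members called, higher in the combination, where 1.98% of 8890 genes were called and 0.81% were called as higher. It had 0 UMIs in both untreated libraries, 3 UMIs in the S. chamaejasme library and 22 and 41 UMIs in the combination libraries. Against a floor of 3 counts over the untreated group this is at least 7.46-fold higher. The call (adjusted p 0.031 by edgeR) comes from the fit without that floor. Gzmk passed the filter on low counts only through the combination libraries, where it was high, so the call is no independent support for a rise. The UMIs came from 8 cells of combination replicate 1 and 6 cells of combination replicate 2, where 31 of the 41 were in 1 cell, and the call was lost without combination replicate 2 (adjusted p 0.22); DESeq2 gave Gzmk no adjusted p. Gzmb differed by 0.43, Gzma by -0.71 and Srgn by -0.28, and none of them was called.

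In innate-like cells the sums were small and single cells carried them. Gzma was at 265 and 95.7 CPM in the untreated and 218 and 1005 CPM in the combination libraries, which overlapped, and was called at 2.02 ± 0.43 (SE; adjusted p 0.012 by edgeR); the call held in 5 of 12 alternatives and DESeq2 called 0 of the members. Gzmb was called at -2.16 ± 0.30 (adjusted p 3.74e-05), but 465 of its 511 UMIs in untreated replicate 2 were in 1 cell. Without the cell with most granzyme UMIs in each library its difference was 0.48 (adjusted p 0.69). These 2 of 6 tested members stand against 0.62% of 6450 genes called. Srgn, at 2780 and 3356 CPM against 1968 and 1942 CPM, differed by -0.71 with an adjusted p of 0.061.

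Whether a change differed between classes was tested with a class by group term and the library as a block over 10218 genes. Srgn was the only member called: its fall was smaller in Treg-like than in CD8 T-like cells by 0.56 ± 0.12 (log2, SE; adjusted p 0.02 by edgeR), where 0.44% of all genes were called. Gzmb differed between the same classes by 2.15 ± 0.52 without a call (adjusted p 0.069). No member was called between CD4 and CD8 T-like cells, where 0.0294% of all genes were, or between innate-like and CD8 T-like cells, where 0% were. With coreceptor gates in place of clusters, the Srgn difference was 0.21 (adjusted p 0.86).

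The S. chamaejasme group had 1 library, which the fit assumes to vary like the others, and its comparisons share libraries with those above. Against the untreated group, Nkg7 and Ctsw rose in CD8 T-like cells, 2 of 8 members, both higher, where 2.86% of all genes were called and 1.26% were called as higher. Nkg7 was at 994 CPM against 610 and 517 CPM, a rise of 0.70 ± 0.16 (SE; adjusted p 0.035 by edgeR), and Ctsw at 787 CPM against 490 and 412 CPM, a rise of 0.68 ± 0.15 (adjusted p 0.035). Both calls were lost without combination replicate 1 (adjusted p 0.14 for Nkg7 and 0.13 for Ctsw) or 2 (0.15 and 0.14). Gzma and Gzmb differed by -0.41 and -0.09, and these turned to 1.06 and 0.88 without untreated replicate 1. In cluster 8, where 3.17% of all genes were called, Ctsw rose by 0.66 ± 0.17 (adjusted p 0.032) and Srgn fell by 0.82 ± 0.17 (adjusted p 0.0091), while Nkg7 differed by 0.49 without a call (adjusted p 0.11). The Ctsw call there was lost with DESeq2 (adjusted p 0.076) and without combination replicate 1 or 2 (0.089 each).

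In CD4 conventional T-like cells Nkg7 was the member that rose with S. chamaejasme, 1 of 7 tested, higher, where 1.44% of all genes were called and 0.554% were called as higher. It was at 62.3 CPM against 25.0 and 17.4 CPM, a rise of 1.52 ± 0.21 (SE; adjusted p 0.034 by edgeR), and the call held in all 12 alternatives. In cluster 3 alone it was at 215 CPM against 61.4 and 77.9 CPM and rose by 1.55 ± 0.23 (adjusted p 0.0028). In Treg-like cells 0 of 7 members were called, where 1.27% of all genes were, and DESeq2 also called 0. Gzmb (log2 1.09, adjusted p 0.15 by edgeR) was the 1 member with an unadjusted p under 0.05. In innate-like cells, where 2.65% were called, Gzma and Ctsw were called as higher (1.81 and 0.84) and Gzmb and Srgn as lower (-2.27 and -1.07), and the Gzmb value became 0.55 without the top cell of each library. The Gzma and Ctsw calls each held in 5 of 11 alternatives, with adjusted p of up to 0.88 (DESeq2) and 0.76 (without combination replicate 2), and the Srgn call was lost without combination replicate 2 (0.60) or with coreceptor gates (0.38).

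Between the combination and S. chamaejasme, Gzmb and Ctsw fell in CD8 T-like cells, 2 of 8 members, both lower, where 1.83% of all genes were called and 1.05% were called as lower. Gzmb fell from 736 to 216 and 164 CPM, by 1.83 ± 0.39 (SE; adjusted p 0.028 by edgeR, 0.66 by DESeq2), and Ctsw from 787 to 450 and 452 CPM, by 0.68 ± 0.15 (adjusted p 0.039). The Ctsw call was lost in 4 of 11 alternatives, among them those without combination replicate 1 (adjusted p 0.44) or 2 (0.48), and the Gzmb call in 3. Cluster 8 made up 27.1% and 30.9% of the class in the combination libraries against 70.8% in the S. chamaejasme library, and within it Ctsw differed by -0.43 (adjusted p 0.58). In CD4 conventional T-like cells Nkg7 fell by 2.04 ± 0.20 (adjusted p 0.012), 1 of 7 members, where 0.202% of all genes were called and 0.176% were called as lower. With coreceptor gates the Nkg7 difference was -0.46 without a call (adjusted p 0.24). Cluster 3, where Nkg7 was at 126 and 110 CPM in the combination against 215 CPM in the S. chamaejasme library, went from 24.5% to 7.001% and 6.90% of the class; within it Nkg7 differed by -0.86 (adjusted p 0.36), and of 5 clusters tested alone it was called in cluster 0 (-2.24, adjusted p 0.0037). No member was called in Treg-like cells (0.472% of all genes), innate-like cells (0.109%) or cluster 8 (0.481%) by edgeR or DESeq2. In edgeR 2 members in Treg-like cells, 0 in innate-like cells and 4 in cluster 8 had an unadjusted p under 0.05, and Gzmk in cluster 8 differed by 0.85 with an adjusted p of 0.053.

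At the level of single cells, each of the 3 granzymes was detected in a minority of cluster 8 cells, except Gzmb in untreated replicate 1. Cells were thinned to 2000 UMIs, which left out shallower cells, so that depth was equal. Gzma was then detected in 43.8%, 19.6%, 18.4%, 34.7% and 20.9% of cluster 8 cells, Gzmb in 57.3%, 36.6%, 38.9%, 36.9% and 25.9%, and Gzmk in 23.6%, 24.2%, 24.4%, 34.1% and 36.4%. For Gzmk both combination libraries lay above the other 3, and for Gzma the libraries of a group were as far apart as the groups. In the CD4 T-like class, most of whose cells should lack these genes (12170 cells, median 4280 UMIs), the shares were 0.953%, 1.27% and 0.583%, so the cluster 8 values lie far above this background. Without thinning, a Gzmk-positive cell of cluster 8 carried 1.8, 2.2, 2.1, 3.9 and 3.7 UMIs of Gzmk on average, more in both combination libraries than in the other 3. Depth was not equal in this count: over all cells the median was 3522, 3915, 3403.5, 4905.5 and 4830.5 UMIs, highest in both combination libraries. The part of depth was not tested.

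Treg-like cells with a UMI of Gzmb made up 12.1%, 8.84%, 14.2%, 11.8% and 7.54% of the class after thinning, and those with Gzma 6.45%, 4.70%, 4.96%, 6.42% and 4.67%. Prf1 was detected in 2.59% of CD4 T-like cells at the same thinning and in 2.06% to 5.45% of cluster 8 cells, so that the CD4 T-like share lay within the range of cluster 8. Nkg7 was detected in 72.3%, 75.8%, 86.6%, 87.5% and 84.1% of cluster 8 cells, the lowest values being those of the untreated libraries, against 3.36% of CD4 T-like cells. Ctsw was detected in 8.69% and Srgn in 87.7% of CD4 T-like cells, so that a share above 0 does not mark a cytotoxic cell for either gene.

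In cluster 8, co-detection was closest for Gzma and Gzmb. There the log2 odds ratio of detecting Gzma and Gzmb in the same cell was 1.97, 1.76, 2.54, 2.92 and 2.20, above 0 in 5 of 5 libraries. That of Gzma and Gzmk was 0.77, 1.34, 1.09, 0.35 and 1.03, also above 0 in all 5, and that of Gzmb and Gzmk was 0.35, 0.32, -0.09, 0.89 and -0.10, above 0 in 3 of 5. Each Gzma and Gzmb value was above both other values of its library. In the larger Treg-like cluster, cluster 5, the Gzma and Gzmb odds ratio was 0.98, 1.51, 1.57, 2.99 and 1.51 from few positive cells, and no cell held both Gzma and Gzmk. In cluster 3 of the CD4 class the order differed: the Gzma and Gzmk odds ratio had a median of 3.12 over the libraries, from 1 to 7 cells with both, against 2.10 for Gzma and Gzmb and 2.20 for Gzmb and Gzmk. These are descriptions over cells that share a library, with no test.

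Cells were also counted by which of the 3 granzymes they held. Cluster 8 cells with Gzmk alone made up 5.6%, 10.3%, 13.2%, 14.2% and 21.8% of the thinned cells, with both combination libraries highest. Cells with Gzmb alone made up 19.1%, 18.6%, 21.0%, 6.8% and 10.9%, with both combination libraries lowest and no overlap. Cells with none of the 3 made up 26.2%, 45.4%, 42.9%, 37.5% and 42.3%, and those with all 3 made up 9.4%, 3.6%, 4.8%, 9.1% and 5.0%, and neither followed the groups. With 2 libraries in each group a two-sided exact permutation test cannot go below 0.333, and none was run.

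**Figure D4:**
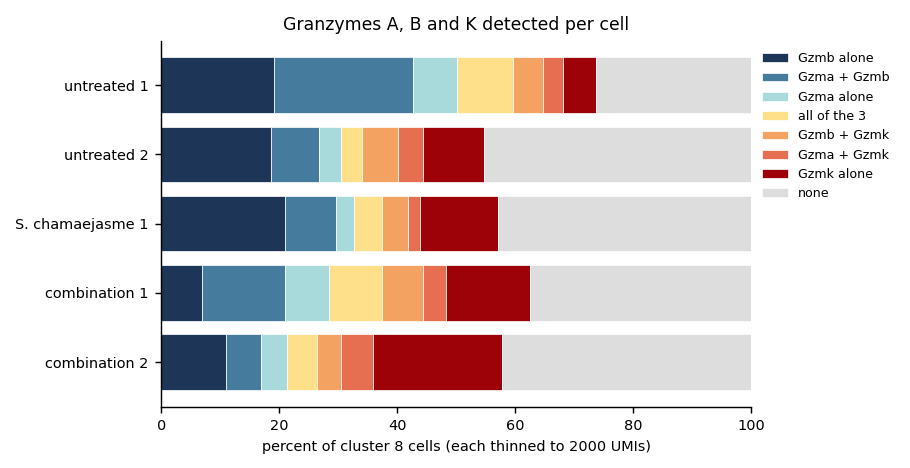
Percent of cluster 8 cells, each thinned to 2000 UMIs, by which of Gzma, Gzmb and Gzmk were detected, with 1 bar per library. The dark red part, Gzmk alone, is 5.6% and 10.3% in the untreated and 14.2% and 21.8% in the combination libraries, and the dark blue part, Gzmb alone, is 19.1% and 18.6% against 6.8% and 10.9%.

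The TCR libraries gave a measure that does not use the members: whether a cell shares its TCR beta chain with another cell of its library. Cells with exactly 1 productive beta chain were 62.0% to 89.1% of the CD8 T-like cells. In the 5 libraries 114, 93, 349, 60 and 100 CD8 T-like cells belonged to clones of 2 or more cells, and 113, 91, 348, 56 and 96 of these were in cluster 8. Expanded cells had more of 6 members. Gzmb was at 2006, 1119, 1110, 828 and 669 CPM in expanded cells and 438, 205, 402, 139 and 69.9 CPM in cells of clones of 1, higher in 5 of 5 libraries, and the difference was 2.16 ± 0.15 (log2, SE; adjusted p 2.48e-09 by edgeR with the library as a block).

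Gzma, Gzmk, Srgn, Nkg7 and Ctsw were also higher in expanded CD8 T-like cells, by 1.54, 1.46, 0.94, 0.70 and 0.56, each with an adjusted p of at most 4.1e-05 by edgeR. Prf1 was lower by -0.73 ± 0.22 (adjusted p 0.022), a call lost in 4 of 7 alternatives. These 7 of 7 tested members stand against 21.1% of 6732 genes called. Gzmm was not tested because of its low counts; it was at 0, 0, 0.753, 0 and 4.12 CPM in expanded cells and 6.35, 6.87, 21.1, 8.45 and 11.1 CPM in cells of clones of 1, lower in expanded cells in 5 of 5 libraries.

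Since expanded cells were nearly all in cluster 8, the contrast was repeated inside it, where 0.554% of 4693 genes were called. There Srgn was the only member called, higher in expanded cells by 0.33 ± 0.05 (log2, SE; adjusted p 0.0033 by edgeR). Gzmb differed by 0.41 ± 0.11 (adjusted p 0.14), Gzmk by -0.39 ± 0.14 (adjusted p 0.33) and Gzma by -0.22 (adjusted p 0.80). Gzmk was lower in expanded than in single cells of cluster 8 in 4 of the 5 libraries, at 134, 217, 158, 254 and 259 CPM against 170, 139, 220, 385 and 443 CPM, with untreated replicate 2 the exception.

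Expanded CD4 conventional T-like cells differed from single ones in 5 of 7 tested members, against 31% of 8570 genes called. Gzmb was at 151, 42.4, 101, 46.1 and 32.5 CPM in expanded and 44.6, 13.3, 24.3, 5.16 and 4.62 CPM in single cells, a difference of 2.02 ± 0.17 (log2, SE; adjusted p 1.93e-07 by edgeR). Prf1 went the other way, at 0, 2.35, 1.12, 5.12 and 7.10 CPM in expanded and 16.2, 6.87, 10.7, 17.9 and 18.5 CPM in single cells, lower by -2.39 ± 0.33 (adjusted p 3.48e-05). Nkg7 and Srgn were higher by 1.22 and 0.65. Gzmk was higher by 1.66 ± 0.47 (adjusted p 0.013), a call kept in 3 of 7 alternatives, and Gzma differed by 0.36 (adjusted p 0.58). Of the 223, 183, 496, 234 and 209 expanded cells 167, 71, 319, 64 and 65 were in cluster 3, so the contrast was repeated inside it, where 0.328% of 4875 genes were called. There Gzmb differed by -0.04 ± 0.14 (log2, SE; adjusted p 0.99 by edgeR), and Gzmk, Nkg7 and Srgn by -0.15, -0.25 and 0.07 without a call. Gzma was called as lower in expanded cells of cluster 3, by -1.85 ± 0.36 (adjusted p 0.024), at 20.4, 5.96, 70.0, 42.5 and 40.3 CPM against 416, 45.4, 106, 74.8 and 75.6 CPM in single cells, a call lost without untreated replicate 1 (-0.87, adjusted p 0.19) or combination replicate 1 (adjusted p 0.066) and with clones of 3 or more cells (0.11). Prf1 was not tested there because of its low counts.

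**Figure D5:**
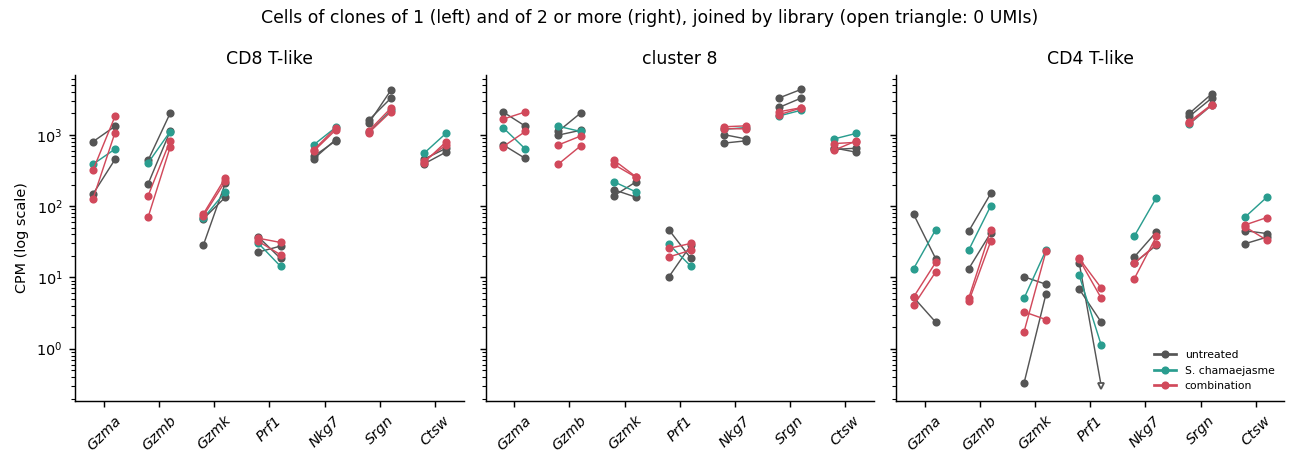
CPM (log axis) of 7 members in cells of clones of 1 (left end of each line) and of 2 or more cells (right end), with 1 line per library coloured by group and open triangles for 0 UMIs. Gzmb rises along all 5 lines in CD8 and CD4 T-like cells, and Prf1 falls along all 5 in CD4 T-like cells.

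Other genes of the granule pathway were read from 5 lists, with genes in them tested in CD8 T-like cells for the combination against the untreated group. There the median log2 change over all genes was 0.01, and 5.35% of all genes were called, 3.69% as lower. Of 16 tested genes of granule release, 0 rose and 1 fell, Sytl3, a synaptotagmin-like protein, by 2.09 (adjusted p 0.00040 by edgeR), and the median of the list was 0.09. Of 8 tested granule proteases, activators and inhibitors, Ctsd, cathepsin D, rose by 0.77 and 0 fell (median -0.26). Of the 6 further granzymes 1 was tested, Gzmc, at -2.01 without a call. Beside the 5.35% of all genes called, at most 1 call in a list is no result about that list.

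Of 15 tested death ligands and cytotoxic receptors 6 fell and 1 rose in the CD8 T-like class, where 3.69% of all genes were called as lower, and the median was -0.49. In cluster 8 alone, where 4.7% of all genes were called, 1 of the 15 fell and 2 rose, with a median of 0.06. The receptor genes Il2ra, Klrc2, Klrc1, Slamf7 and Il2rb fell by 2.51, 1.59, 1.07, 0.62 and 0.49, and Tnf, the cytokine gene, fell by 0.89, whereas Crtam, an adhesion receptor, rose by 0.78. Among 20 regulators 0 rose and 5 fell (median -0.24): Zeb2, Prdm1, Bhlhe40, Hopx and Nfil3, all transcription regulators, fell by 1.96, 1.35, 1.32, 0.80 and 0.72. These calls are by edgeR. In the class DESeq2 called 2 of the 15 death ligands and receptors and 1 of the 20 regulators. In cluster 8, with the same 4.7% of all genes called by edgeR, 2 of 19 tested regulators fell and 1 rose (median -0.08). DESeq2 called 1 of the 19 and 0 of the 15 death ligands and receptors in cluster 8. Of these lists, Crtam, Klrk1, Ctsd, Ctsb and Klf2 were called as higher there (1.24, 1.02, 1.12, 0.66 and 0.88) and Il2ra, Sytl3, Zeb2 and Bhlhe40 as lower (-1.79, -1.48, -1.38 and -0.58).

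The S. chamaejasme group, of 1 library, was compared with the untreated group in CD8 T-like cells, where edgeR called 2.86% of all genes. It called Ifng (1.13), Cd226 (0.75) and Tbx21, the T-bet gene (0.86), as higher and Il2rb (-0.70), Stat5a (-1.01) and Stat5b (-0.67) as lower. DESeq2 called 1 of the 15 death ligands and receptors and 0 of the 20 regulators, against 3 of each list by edgeR. Cluster 8 made up 70.8% of the class with S. chamaejasme against 60% and 37.9% in the untreated libraries. Within it edgeR called Ifng (0.74) as higher and Il2ra (-1.16), Il2rb (-0.80), Stat5a (-1.28) and Stat5b (-0.95) as lower, but not Cd226 or Tbx21. DESeq2 called 0 genes of both lists in cluster 8. From S. chamaejasme to the combination 7 of 15 death ligands and receptors fell, Ifng by 1.68, Fasl by 1.49 and Tnf by 1.32 among them, and 0 rose, where 1.05% of all genes were called as lower. In cluster 8 edgeR and DESeq2 called 0 of the 15 in that comparison. Only 0.481% of all genes were called there by edgeR, so 0 of 15 is no result about the list. In edgeR 3 of the 15 had an unadjusted p under 0.05, and the median was -0.21. In the CD8 T-like class Tbx21 fell by 0.87 and Klf2 rose by 1.51 between the same groups. In that class, too, DESeq2 called fewer genes of both lists than edgeR did.

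The genes most like a granzyme in level were taken as the 5 with the highest Pearson r of log2 CPM over the 20 sums of 4 classes and 5 libraries, among 5066 genes; sums of 1 library share their depth and sums of 1 class their cell type. Gzmb was closest to Gabarapl1 (0.90), Hopx (0.87), Abcb1a (0.86), Utf1 (0.85) and Txn1 (0.85). Gzmk was closest to Cd8b1 (0.89), Thy1 (0.87), Trav16n (0.82), Klk8 (0.81) and Slc25a4 (0.81), and Gzma to Cst7 (0.91), Trpc4ap (0.88), Ccr9 (0.86), AW112010 (0.84) and Cxcr3 (0.84). No gene stood in more than 1 of the 3 lists.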

How the data were processed

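Single-cell RNA and TCR libraries were made from the same samples. Per the submitters' processing notes, reads were processed with Cell Ranger 3.1.0 and STAR on mm10; the deposited RNA files give UMI counts of each gene in each cell, without normalization, and the deposited TCR tables list contigs by cell with counts of reads and UMIs. The members and gene lists were chosen with earlier results of these data known.

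Barcodes under 300 genes or over 10% mitochondrial UMIs were left out, likely doublets were removed (1310, by Scrublet score at 0.8% per 1000 cells and by 2 or more beta chains), and clusters were made in Scanpy 1.11.5 (Python 3.11.15, leidenalg 0.10.2) from 2000 variable genes without the members, 30 components, 15 neighbours and resolution 1. Clusters 11 and 14, of low UMIs and of mixed cells, and cluster 12 of cycling cells entered no class. Counts were summed per library and class and tested in edgeR 4.0.16 (R 4.3.3; TMM, filterByExpr, glmQLFit and glmQLFTest, two-sided, 5 libraries, 2 residual degrees of freedom) with Benjamini-Hochberg adjustment over all genes tested and a threshold of 0.05; the main alternative was DESeq2 1.42.0. Clone and gate contrasts had the library as a block. Beside an adjusted p, SE is that of the log2 change. Co-detection odds ratios had 0.5 added to each count. On simulated data with 200 changed genes among 9452 in the CD8 T-like comparison of the combination with the untreated group, the test recovered 98.5%. It called 207 genes, and 197 of these were changed ones. The planted changes were large and every gene had the same small spread. Members such as Gzma (1030 and 202 CPM in untreated CD8 T-like cells) vary more, so 98.5% is not the power for them. Libraries held 8763821 to 27759543 UMIs. The genes named beside the members are those of fixed lists that passed the threshold and, per granzyme, the 5 of the most similar level. Cluster 8 and each CD4 cluster alone as extra fits, fits without the cell with most granzyme UMIs, the clone contrasts in clusters 8 and 3, and the CD4 class without cluster 7 were added after the data were seen. Treg-like clones were not contrasted, because 1 library had 9 expanded cells. The background of cell shares is given for the whole CD4 T-like class, chosen after the data were seen; a narrower background set is not reported here.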

Additional observations from a re-analysis of the deposited data

Results flagged for a closer look

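The change of Srgn in the combination against the untreated group differed between 2 classes by the test of that difference itself. The fall in Treg-like cells was smaller than that in CD8 T-like cells by 0.56 ± 0.12 on the log2 scale (SE; adjusted p 0.02, edgeR's quasi-likelihood test with the library as a block and Benjamini-Hochberg adjustment). Srgn was at 3317 and 4030 CPM in the untreated and 3204 and 3142 CPM in the combination libraries in Treg-like cells, and at 2272 and 2063 against 1174 and 1289 CPM in CD8 T-like cells. The groups did not overlap in either class. With cells chosen by coreceptor UMIs the difference was 0.21 with an adjusted p of 0.86.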

How the results depend on the processing

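No paired analysis was possible because the labels give no replicate numbers that tie libraries of different groups to a shared animal, batch or day. Counts below are of member and class pairs called at an adjusted p under 0.05 over the 4 classes. For the combination against the untreated group the count was 6, against 11 with no filter on low counts, 2 with DESeq2 and 4 to 17 when each library was left out in turn. For S. chamaejasme against the untreated group it was 7, against 3 with coreceptor gates, 4 without the cell with most granzyme UMIs and 3 to 19 with a library left out. For the combination against S. chamaejasme it was 3, against 9 with no filter, 1 with doublets kept and 4 to 19 with a library left out. Class fits without an untreated or combination library have 1 residual degree of freedom, and those without the S. chamaejasme library have 2. The share of all genes called in each alternative is not given here. A count that moved between settings is therefore no result about the members. In cluster 8 the count of 4 became 2 with DESeq2 and 3 to 5 with a library left out. The 1 class difference became 2 to 7, and the 1 member called between clones in cluster 8 became 1 to 2. The 1 called between clones in cluster 3 became 0 with DESeq2 or clones of 3 or more cells and 0 to 1 with a library left out.

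With a library left out, log2 differences changed sign and passed the threshold in these cases, none of them called with all 5 libraries. For the combination against the untreated group, Gzma ranged from -1.53 to 0.67 in CD8 T-like cells, from -1.74 to 1.25 in Treg-like cells and from -0.51 to 1.08 in cluster 8, and Gzmk from -1.03 to 1.002 in CD4 T-like cells. For S. chamaejasme against the untreated group, Gzma ranged from -1.13 to 1.06 in CD8 T-like, from -0.63 to 2.22 in CD4 T-like and from -1.83 to 1.16 in Treg-like cells, and Gzmb from -0.67 to 0.88 in CD8 T-like cells. In every one of these, leaving out untreated replicate 1 gave the highest value, and the lowest came without untreated replicate 2 except for Gzma in cluster 8, where it came without combination replicate 1 (-0.46 without untreated replicate 2). Gates turned Gzmk and Nkg7 in CD4 T-like cells to 1.55 and 1.21, Gzmb in innate-like cells to 1.20 (combination) and 1.33 (S. chamaejasme), and the CD4 against CD8 difference in the Gzmk change to 1.68; without the top granzyme cell the 2 innate-like Gzmb values were 0.48 and 0.55. The cause was not tested. The median odds ratio of Gzma and Gzmk in cluster 8 moved from 1.03 to 0.59 at 1000 UMIs, that of Gzmb and Gzmk from 0.32 to 0.85 without thinning, and the median Gzmk share from 24.4% to 15.05% at 1000 UMIs and 35.1% without thinning.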
